A study of Mus musculus with 3 samples.

Results

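Glycolytic enzymes below hexokinase are described here through the transcripts of 10 genes, Gpi1, Pfkl, Pfkp, Aldoa, Tpi1, Gapdh, Pgk1, Eno1, Pkm and Ldha, taken by symbol from the 55357 gene entries of the series. Each was counted in 3 single-cell RNA libraries of nasal mucosa from C57BL/6 mice, made with 10x Genomics Chromium 3′ chemistry. In the papain + lonidamine library, mice received 20 µg papain into the nose and lonidamine (LND) by the intragastric route at 10 mg/kg. In the papain library, which the study uses as its model of eosinophilic chronic rhinosinusitis (ECRS), mice received 20 µg papain into the nose and PBS by the intragastric route. In the PBS library, mice received PBS into the nose. Males and females entered each group in equal parts by the design text, the number of mice was not given in the sources used here, and mice of one group were mixed before capture. Each group is therefore 1 library without replicates, no test between groups is possible, and higher or lower describes these libraries only.

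Glycolysis splits glucose into pyruvate in the cytosol. The preparatory steps rearrange, phosphorylate and cleave the sugar, the payoff steps recover ATP and NADH, and lactate dehydrogenase regenerates NAD+ by turning pyruvate into lactate. Many of these genes are textbook targets of hypoxia-inducible factors, and lonidamine is known to block hexokinase as well as the carriers that move pyruvate and lactate, so the members lie below one of its known targets.

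Within the papain + lonidamine, papain and PBS libraries, 11887, 10524 and 9378 cells were kept, with 84998730, 82918339 and 79971740 UMIs (unique molecular identifiers, the counts of captured RNA molecules). Median UMIs per cell were 5823, 6547 and 7353, and median mitochondrial shares 3.42%, 3.80% and 2.38%. 18S ribosomal RNA took 3.51%, 3.66% and 0.877% of UMIs, and 83.1%, 73.2% and 56.8% of the cells that could be assigned a sex were female. Pairs of libraries shared 22 to 35 cell barcodes. The labels also give the papain library the name Fibroblast. Its treatment label, papain, was used here. Cells were sorted into types by marker genes, and 15 types with at least 50 cells in every library were used, which took in 21146 of 31789 cells. A name such as macrophage-like means that the cell carried at least 3 markers of that type. All 15 types had at least 2 of their own markers among their 10 leading genes and none of another type. Cells were sorted by these same markers, so this is no independent check of the names. Levels are given as CPM, the UMIs of a gene per 1000000 UMIs of the same cells and library. Ratios are log2 ratios of those levels with 0.5 added to each count, with a 95% interval in brackets, which reflects counting error alone.

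The core of the hypoxia response element, ACGTG on either strand, was searched in RefSeq promoter windows of build GRCm38.p6 that run from 250 bases before to 50 after each transcript start. All 10 members were matched by symbol, to 16 windows. ACGTG was present in 6 of the 16 windows, those of Aldoa, Gapdh, Pgk1, Pkm and Ldha, and 19.6% of all 32851 windows hold it. By gene, with any of a gene's windows counted, these were 5 of 10 members, beside 21.8% of 27025 genes. GCGTG was present in 8 of the 16 windows, beside 32.4% of all. At least 1 of the motifs was present for 8 members, beside 46.7% of genes, and Gpi1 and Tpi1 had none. The windows of Ldha, Pgk1 and Eno1 are shown because these genes had the most matches, the smallest and the largest difference between papain and PBS over all cells. All 3 lie on the plus strand, at chr7:46845554-46845803, chrX:106186850-106187099 and chr4:150236974-150237223, and are cut to the 250 bases before the start. Capitals mark ACGTG or its reverse complement CACGT, and GCGTG or its reverse complement CACGC. A palindromic match, present in the Ldha window, holds overlapping matches on both strands.
Ldha: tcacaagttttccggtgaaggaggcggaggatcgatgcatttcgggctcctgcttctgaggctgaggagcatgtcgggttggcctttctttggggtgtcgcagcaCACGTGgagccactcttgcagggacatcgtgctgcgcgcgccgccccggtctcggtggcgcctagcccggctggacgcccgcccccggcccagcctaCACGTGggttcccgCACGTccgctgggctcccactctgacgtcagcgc
Pgk1: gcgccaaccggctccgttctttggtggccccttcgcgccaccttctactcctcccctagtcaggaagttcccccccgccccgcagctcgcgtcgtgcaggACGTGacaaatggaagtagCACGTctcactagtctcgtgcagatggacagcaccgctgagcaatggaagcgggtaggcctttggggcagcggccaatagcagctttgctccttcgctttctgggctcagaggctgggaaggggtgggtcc
Eno1: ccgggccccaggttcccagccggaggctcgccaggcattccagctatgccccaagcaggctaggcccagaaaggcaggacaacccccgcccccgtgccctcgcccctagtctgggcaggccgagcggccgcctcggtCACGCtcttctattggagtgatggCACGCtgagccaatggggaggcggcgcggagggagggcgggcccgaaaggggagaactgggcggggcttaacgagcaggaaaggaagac
Ldha had 5 ACGTG matches, a number that 0.18% of all windows reach, Pgk1 had 2, and the Eno1 window had none and 2 GCGTG matches. A match describes these letters and was not tied to binding or to the values below.

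All 10 enzymes stood lower in the papain library than in the PBS library when all cells were counted together. The 10 genes summed to 2425 CPM in papain and 4155 in PBS, a log2 ratio of -0.78 [-0.78, -0.77]. The median gene of these libraries was at -0.02 (20219 genes), the 1698 genes of at least 100 CPM had a median of -0.12, and 7.83% of those abundant genes lay below the members' median of -0.73. The 86 ribosomal protein genes, as abundant transcripts of another process, had a median of -0.14 over all cells, although within several cell types they lay about as low as the enzymes or lower. Eno1 alone was at least 2-fold lower, and 4.97% of all genes were. The summed ratio was -0.82 in female and -0.55 in male cells, and equal weight per cell gave -1.04.

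In the preparatory steps, Gpi1 (glucose-6-phosphate isomerase) had 190 CPM in papain and 306 in PBS (-0.69). Pfkl and Pfkp, the liver-type and platelet-type subunits of phosphofructokinase, the committed step, had 32.6 and 61.4 in papain against 45.5 and 107 in PBS (-0.48 and -0.80). Aldoa (aldolase A, which cleaves the sugar) had 416 in papain and 813 in PBS, a ratio of -0.97, and Tpi1 (triosephosphate isomerase) had 148 in papain and 254 in PBS (-0.78). Aldolase A thus came close to a 2-fold difference, and the other preparatory enzymes stayed short of it. In the payoff steps, Gapdh, the dehydrogenase that makes NADH, had 636 in papain and 1199 in PBS (-0.91). Pgk1 (phosphoglycerate kinase, the first ATP-making step) had 124 in papain and 140 in PBS (-0.17). Eno1 (alpha-enolase) had 91.8 in papain and 250 in PBS, a ratio of -1.44 [-1.48, -1.41]. Pkm (muscle-type pyruvate kinase, the second ATP-making step) had 448 in papain and 715 in PBS (-0.68). Eno1 and Pgk1 mark the ends of the range, although their products act in the same stretch of the pathway. Ldha (lactate dehydrogenase A) had 278 in papain and 328 in PBS (-0.24). Pgk1 and Ldha were the members nearest to 0 over all cells. They stood at -0.05 and -0.11 in female cells, at -0.02 and -0.05 in male cells, and at -0.44 and -0.57 with each cell weighted equally. Cell type shares differed. Mature olfactory neuron-like cells were 11.3% of papain and 27.9% of PBS cells and basal epithelial-like cells 14.4% in papain and 7.84% in PBS. Ratios within types are given below. Free RNA was not separated, so these may still depend in part on the shares, which was not tested.

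**Figure D1:**
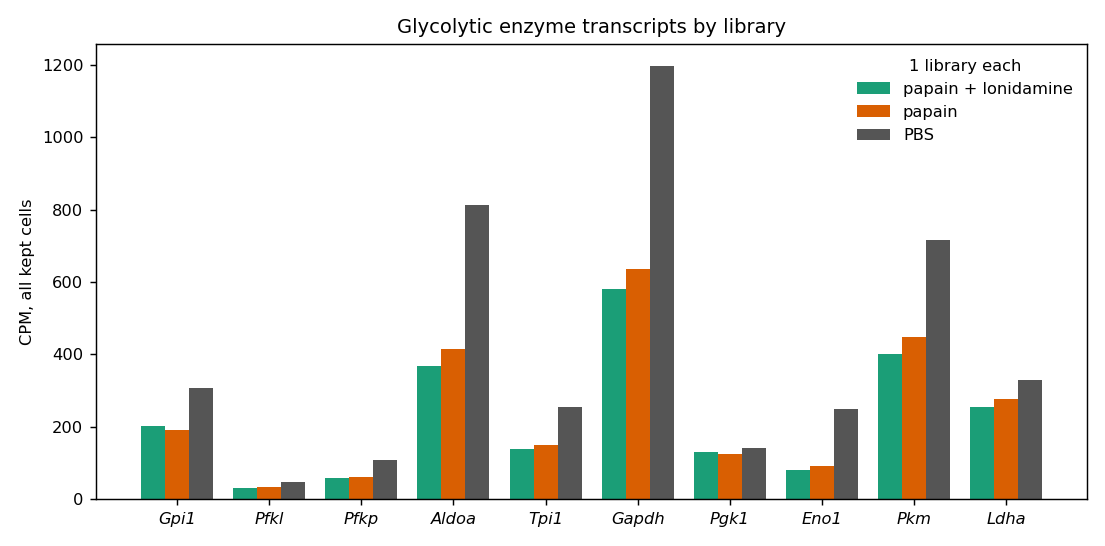
CPM (vertical axis) of each of the 10 enzymes over all kept cells, in the papain + lonidamine, papain and PBS libraries (bars, 1 library each, no error bars because there are no replicates). The papain bar is lower than the PBS bar for all 10 genes, by the most for Eno1 (91.8 against 250).

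Adding lonidamine to papain left the enzymes near their papain level, slightly lower in sum. The summed level was 2237 in papain + lonidamine and 2425 in papain, a log2 ratio of -0.12 [-0.13, -0.11], against a median of 0.03 over 20312 genes and -0.02 over abundant genes. None of the 10 genes was 2-fold lower or higher, beside 1.27% and 2.25% of all genes. Of the 10 genes, 8 lay below 0, from Pfkp (-0.07) to Eno1 (-0.22, 78.8 in papain + lonidamine and 91.8 in papain). Gpi1 (201 in papain + lonidamine and 190 in papain, 0.08) and Pgk1 (129 in papain + lonidamine and 124 in papain, 0.06) lay above 0. Ldha had 254 in papain + lonidamine and 278 in papain (-0.13). Yet Ldha was 0.02 in female and -0.78 in male cells, and Pgk1 was 0.14 in female and -0.29 in male cells. The mix of male cells differed. Basal epithelial-like cells were 137 of 1580 male cells in papain + lonidamine and 391 of 2109 in papain. Mature olfactory neuron-like cells were 325 of the male cells in papain + lonidamine and 172 in papain. The part of this mix in the male values was not tested. The summed ratio was -0.11 in female and -0.17 in male cells, and -0.07 with cells thinned to 2000 UMIs. Both comparisons use the papain library, so their values are not independent.

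The enzymes were not at one level across the mucosa. In sum they were highest in every library in ionocyte-like cells, the ion-transporting cells of the epithelium, at 3644 CPM in papain + lonidamine, 3692 in papain and 5620 in PBS. Mature olfactory neuron-like cells, which sense odorants, followed at 3235 in papain + lonidamine, 3407 in papain and 5196 in PBS. Lowest in the mean of the 3 libraries were fibroblast-like cells, the matrix-making cells of the stroma, at 1229 in papain + lonidamine, 1306 in papain and 2259 in PBS. The ranges over the 3 libraries of neighbours in this order overlapped, as for ionocyte-like and mature neuron-like cells, and the fibroblast-like range overlapped that of ciliated-like cells (1751 in papain + lonidamine, 1723 in papain and 2173 in PBS), which were the lowest in the PBS library. The PBS library was the highest in all 15 types. The enzymes thus took 0.123% to 0.364% of a type's UMIs in papain + lonidamine, 0.131% to 0.369% in papain and 0.217% to 0.562% in PBS.

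**Figure D2:**
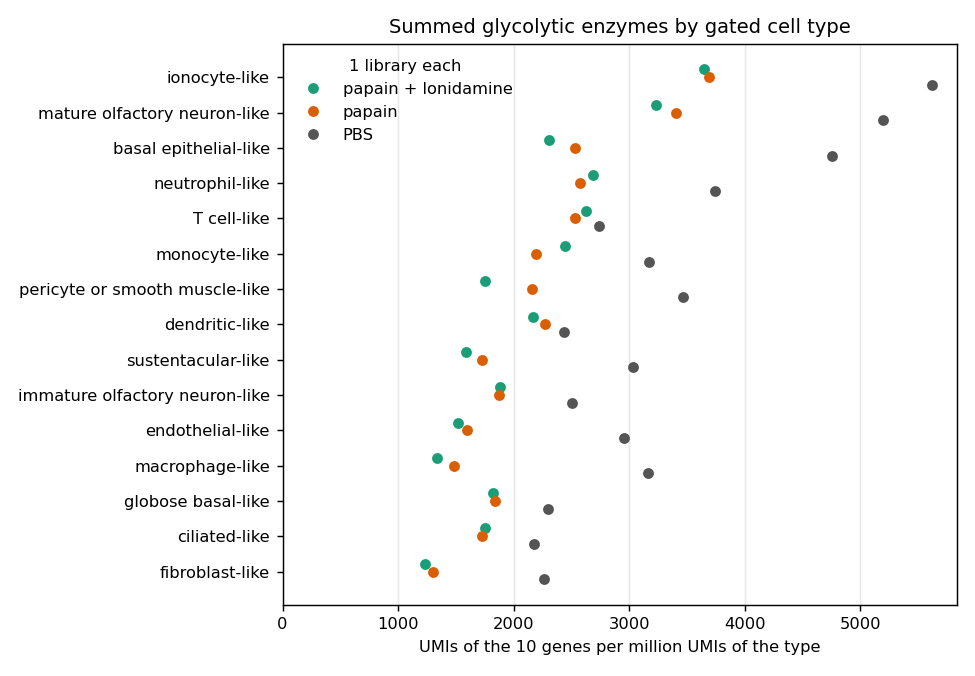
Summed level of the 10 enzymes in CPM (horizontal axis) in 15 marker-gated cell types, ordered by the mean of the libraries, with 1 point per library. The PBS point lies to the right of the papain point in every type, and ionocyte-like and mature olfactory neuron-like cells stand highest.

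Single enzymes had their own order of types. Mean levels over the 3 libraries were highest in mature olfactory neuron-like cells for Gpi1, Gapdh, Eno1 and Pkm, and in ionocyte-like cells for Pfkp, Aldoa and Tpi1. Basal epithelial-like cells, the stem cells of the epithelium, were highest for Pfkl, Pgk1 and Ldha. Ldha had 452 CPM in papain + lonidamine, 504 in papain and 894 in PBS in basal epithelial-like cells, but 17.7 in papain + lonidamine, 14.1 in papain and 40.3 in PBS in mature olfactory neuron-like cells, a 25.6-fold difference of means. Pfkp ranged most widely. It had 469 in papain + lonidamine, 469 in papain and 611 in PBS in ionocyte-like cells, against 5.59 in papain + lonidamine, 8.23 in papain and 11.1 in PBS in globose basal-like cells, the neuronal progenitors, 62.0-fold less in mean. Mature olfactory neuron-like cells also held the lowest mean Pgk1 (41.7 in papain + lonidamine, 40.3 in papain and 47.2 in PBS), so these neurons, second in summed level, were lowest in these 2 members. Those ranges do not overlap with the basal epithelial-like ranges (178 in papain + lonidamine, 178 in papain and 243 in PBS for Pgk1). Gpi1 varied least, by 2.89-fold between fibroblast-like and mature neuron-like cells.

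Over the 15 types, the genes outside the list whose mean log2 level was most like the summed members were Xpr1 (Pearson r = 0.71), Ndufa1 (0.70), Cox7b (0.69), Ndufs8 (0.69) and Btaf1 (0.68), out of 2687 such genes with at least 50 CPM in at least 50% of the types. Ndufa1 and Ndufs8 encode subunits of respiratory complex I, Cox7b a subunit of cytochrome c oxidase, and Xpr1 a phosphate exporter. These correlations describe 15 points that share libraries and depth. They are the highest picked from 2687 genes, and how high such a pick would be among unrelated genes was not tested. Each member is itself part of the sum, so members were set against the sum of the other 9. Of the 8 members that met the minimum, Gpi1 (0.77) and Eno1 (0.76) had the highest correlation, Gapdh had 0.56, and Pgk1 (-0.01) and Ldha (-0.10) had the lowest.

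Within cell types the summed enzymes were again lower in papain. The summed level in papain was below that in PBS in 15 of 15 types, with an interval below 0 in 14, and below the all-gene median of the same cells in 15. Of the 150 values for a member in a type, 137 were below 0, 23 were at least 2-fold lower and 1 was at least 2-fold higher, beside 4.11% and 5.66% of all gene and type pairs. The pairs were held to at least 50 UMIs in the 2 libraries and the members were not. Among the lower values, Pfkl fell under that minimum in dendritic-like (9 UMIs in papain and 20 in PBS) and monocyte-like cells (0 in papain and 39 in PBS). The ratio ran from -1.09 [-1.16, -1.03] in macrophage-like to -0.10 [-0.22, 0.01] in dendritic-like cells. Eno1, Aldoa and Tpi1 were below 0 in 15 of 15 types, and the interval of Eno1 lay below 0 in each. The median of ribosomal protein genes was also below 0 in 14 of 15 types, and the members' median was lower than it in 11. The medians lay close together in ionocyte-like (enzymes -0.52, ribosomal proteins -0.51) and globose basal-like cells (enzymes -0.31, ribosomal proteins -0.28), and both were at -0.24 in dendritic-like cells. Ribosomal protein genes were the lower in immature olfactory neuron-like (enzymes -0.50, ribosomal proteins -0.54), neutrophil-like (enzymes -0.49, ribosomal proteins -0.55) and T cell-like cells (enzymes -0.13, ribosomal proteins -0.58). The widest gap was in macrophage-like cells (enzymes -1.12, ribosomal proteins -0.02). Each value is scaled to the UMIs of its own type and library. Make-up within a type was not tested, except where values within clusters are given below.

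**Figure D3:**
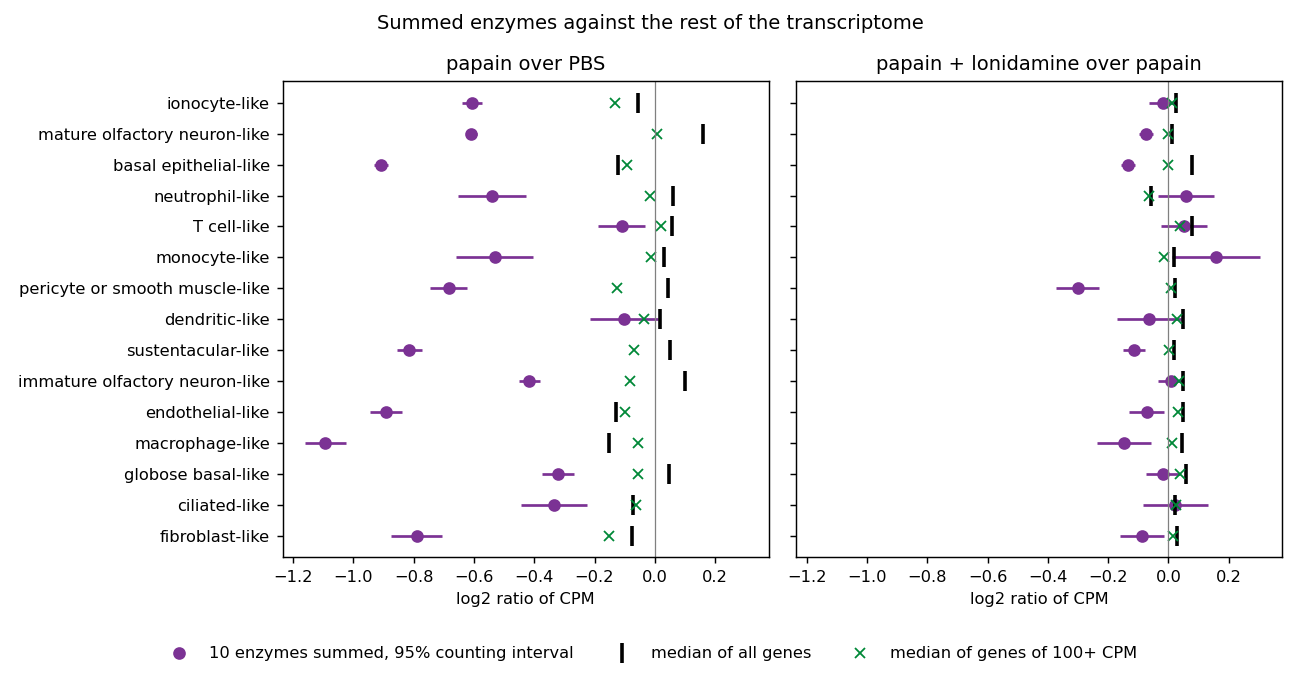
Log2 ratio (horizontal axis) of the 10 enzymes summed (points, bars are 95% counting intervals), with the median of all genes (vertical ticks) and of genes of at least 100 CPM (crosses) in each type, papain over PBS on the left and papain + lonidamine over papain on the right. On the left the points run from -1.09 to -0.10 and lie left of the all-gene tick in 15 of 15 types, and on the right they run from -0.30 to 0.16.

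In macrophage-like cells, the tissue phagocytes named from complement C1q and other markers, 6 of 10 enzymes were at least 2-fold lower in papain, against 8.05% of 7255 genes. The summed level was 1480 in papain and 3159 in PBS. Tpi1 had 63.6 CPM in papain and 201 in PBS (-1.66), from 95 UMIs in papain and 514 in PBS. Eno1 (53.5 in papain and 136 in PBS, -1.34 [-1.71, -0.99]), Aldoa (199 in papain and 496 in PBS, -1.32), Gapdh (433 in papain and 1023 in PBS, -1.24), Pkm (254 in papain and 585 in PBS, -1.21) and Ldha (138 in papain and 282 in PBS, -1.03) followed. Gpi1 (196 in papain and 203 in PBS, -0.05) and Pfkp (36.8 in papain and 33.7 in PBS, 0.13) stood apart from the rest, with intervals that include 0. With macrophage-like cells thinned to 2000 UMIs, 51.0% of papain and 75.8% of PBS cells had a Gapdh UMI (68.9% in papain and 89.6% in PBS unthinned). Thinning left out the cells under 2000 UMIs, 76 of 315 in papain and 42 of 327 in PBS. Omp, a marker of mature olfactory neurons that macrophages should lack, had 78.9 CPM in macrophage-like cells of papain and 160 of PBS, against 5480 in papain and 4426 in PBS in mature olfactory neuron-like cells. Free RNA was not separated, and its part in these values was not tested.

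Endothelial-like cells, which line vessels, had 5 of 10 enzymes at least 2-fold lower in papain, against 5.91% of 9080 genes. Eno1 had 32.2 CPM in papain and 104 in PBS (-1.68 [-2.04, -1.35]). Tpi1 (67.0 in papain and 174 in PBS, -1.37), Aldoa (200 in papain and 471 in PBS, -1.24), Pgk1 (70.3 in papain and 158 in PBS, -1.17) and Gapdh (369 in papain and 767 in PBS, -1.05) were also past 2-fold. Pfkp went the other way, with 59.9 in papain and 39.8 in PBS (0.58 [0.23, 0.96]), while Pfkl, the other subunit listed here, had 41.0 in papain and 71.0 in PBS (-0.79). The platelet-type subunit thus made up 51.4% of phosphofructokinase UMIs (Pfkl, Pfkm and Pfkp) in papain and 32.6% in PBS endothelial-like cells.

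Basal epithelial-like cells had 3 enzymes at least 2-fold lower in papain, against 7.1% of genes. Aldoa had 356 CPM in papain and 982 in PBS (-1.46 [-1.52, -1.41]), Eno1 57.2 in papain and 172 in PBS (-1.59) and Tpi1 132 in papain and 302 in PBS (-1.20). Ldha, whose highest level was in these cells, had 504 in papain and 894 in PBS (-0.83). Different clusters held most of them. A cluster led by Ifi202b, Acaa1b and Krt15 held 54.4% of the papain + lonidamine and 51.8% of the papain cells, while 53.7% of the PBS cells sat in one with Nrcam and Abca4 in front. Within these clusters, chosen after the values were seen, the summed ratio was -0.57 in the first and -1.07 in the second, and -0.97 in another led by Pthlh, the same direction in each.

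Mature olfactory neuron-like cells had 3407 CPM in papain and 5196 in PBS (-0.61 [-0.63, -0.59]), where the median gene was at 0.16. Gapdh had 1036 in papain and 1693 in PBS (-0.71), Aldoa 651 in papain and 1028 in PBS (-0.66) and Eno1 241 in papain and 458 in PBS (-0.93), while Pkm had 878 in papain and 1095 in PBS (-0.32). Ldha was the member past 2-fold, with 14.1 in papain and 40.3 in PBS (-1.51), a low level in both, beside 3.09% of genes. Most of these cells sat in a cluster led by S100a5 and Pcdh10 in papain (67.0%) and PBS (84.5%), and in one led by Obp2a and Slc1a2 in papain + lonidamine (56.0%). The summed ratio of papain to PBS was -0.57 within the first of these and -0.72 within the second. Immature olfactory neuron-like cells, the neurons not yet wired, stood at -0.42, with Pfkp lowest (7.46 in papain and 14.9 in PBS, -0.99), and globose basal-like cells at -0.32, where all 10 enzymes lay between -0.58 and -0.24.

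Sustentacular-like cells, which support the neurons, had Ldha at 83.2 CPM in papain and 244 in PBS (-1.56 [-1.72, -1.39]) and Aldoa at 399 in papain and 910 in PBS (-1.19), past 2-fold beside 5.09% of genes. A cluster led by Muc2 and Gldn held 79.8% of these cells in papain and 55.0% in PBS, and one led by Slc22a20 and Chil6 held 15.9% in papain and 43.9% in PBS. The part of that shift in the ratios was not tested. Fibroblast-like cells stood at -0.79, with Aldoa past 2-fold (233 in papain and 534 in PBS, -1.20, beside 5.9% of genes). Pericyte or smooth muscle-like cells stood at -0.68 and ionocyte-like cells at -0.61, where Gapdh had 740 in papain and 1468 in PBS (-0.99) and Pfkp, the subunit these cells carry most, 469 in papain and 611 in PBS (-0.38).

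T cell-like and dendritic-like cells showed the smallest summed differences of the 15 types. In T cell-like cells the sum was 2534 in papain and 2735 in PBS (-0.11 [-0.19, -0.03]), and -0.13 within the cluster led by Ctla4 and Tnfrsf4, which held 77.3% of these cells in papain and 53.8% in PBS. Eno1 (85.2 in papain and 186 in PBS, -1.13, past 2-fold beside 2.52% of genes) and Aldoa (220 in papain and 382 in PBS, -0.80) were lower there, but Gapdh had 791 in papain and 747 in PBS (0.08), Pkm 392 in papain and 366 in PBS (0.10) and Ldha 422 in papain and 396 in PBS (0.09), each with an interval that includes 0. Pgk1 was higher, with 185 in papain and 143 in PBS (0.37 [0.06, 0.70]). In dendritic-like cells 1 enzyme was past 2-fold higher, against 4.17% of genes, and 1 past 2-fold lower, against 2.25%. They were the subunits of phosphofructokinase: Pfkp had 341 in papain and 162 in PBS (1.07 [0.69, 1.47]), and Pfkl 15.9 in papain and 39.9 in PBS (-1.29) from 9 UMIs in papain and 20 in PBS. Neutrophil-like cells stood at -0.54, with no enzyme past 2-fold. Monocyte-like cells stood at -0.53, with Pfkl and Eno1 (95.5 in papain and 262 in PBS, -1.43) past 2-fold beside 3.81% of genes. Pfkl in monocyte-like cells had 0 of 261699 UMIs in papain, where 3 UMIs, the limit a count of 0 allows, would be 11.5 CPM. The PBS level, 28.0 from 39 UMIs, was 2.45-fold above that limit, a figure that leaves out the counting error of the PBS count. Ciliated-like cells stood at -0.33, with Ldha higher (184 in papain and 126 in PBS, 0.55 [0.15, 0.96]) and Eno1 past 2-fold lower (59.0 in papain and 143 in PBS, -1.27, beside 5.22% of genes).

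**Figure D4:**
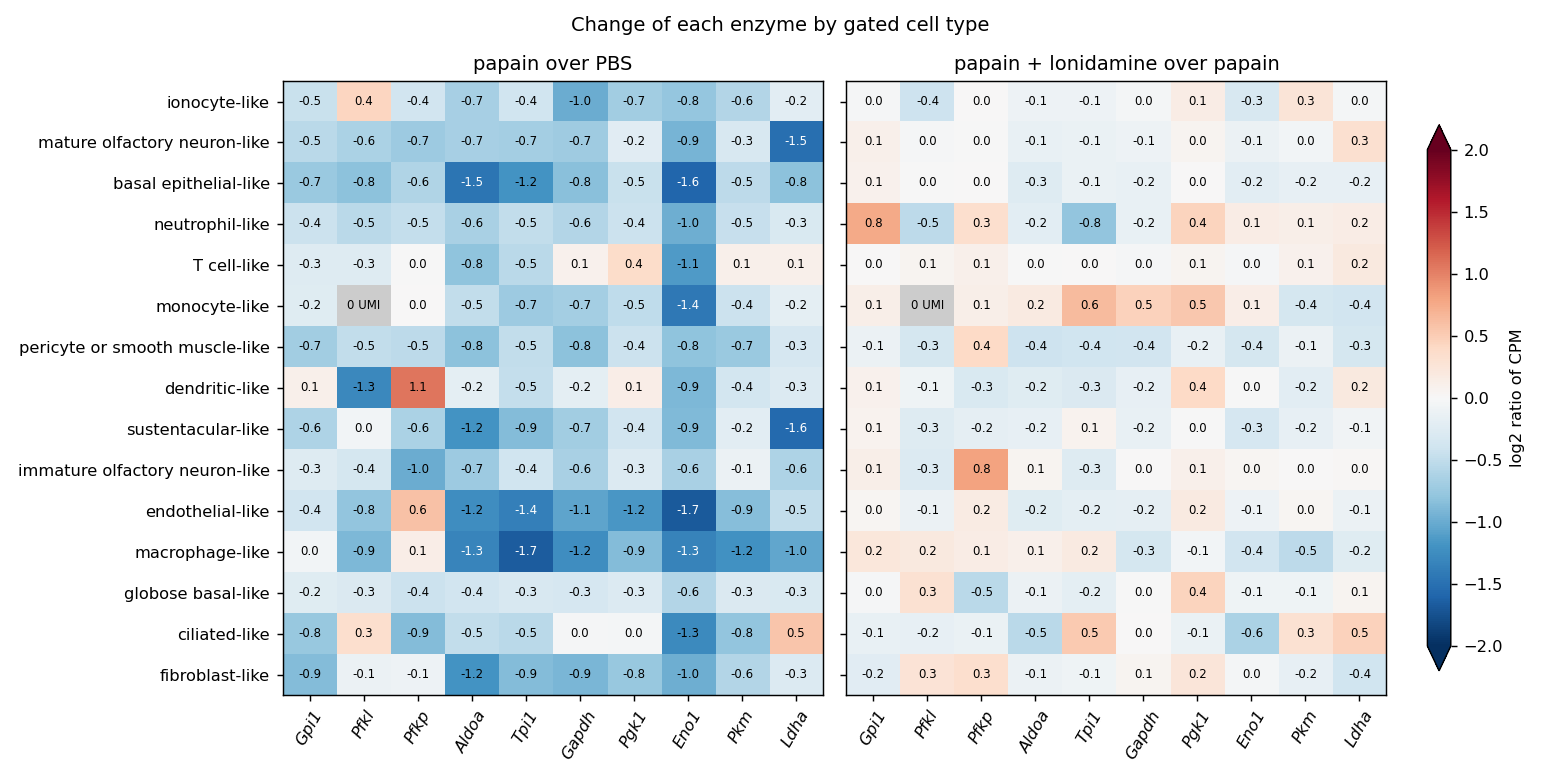
Log2 ratio of CPM of each enzyme (columns, in pathway order) in each cell type (rows), papain over PBS on the left and papain + lonidamine over papain on the right, blue for lower and red for higher. Grey cells mark Pfkl in monocyte-like cells, which had 0 UMIs in papain. On the left the Eno1 column is below 0 in all 15 types and the macrophage-like row holds 6 values past 2-fold, and on the right most cells are pale.

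Lonidamine with papain against papain alone gave small differences in single types. The summed ratio was below 0 in 10 of 15 types and below the all-gene median in 12, with intervals below 0 in 7 and above 0 in 1. The number below 0 was 13 of 15 with median-of-ratios scaling and 9 of 15 with doublets kept. It was lowest in pericyte or smooth muscle-like cells, with 1753 CPM in papain + lonidamine and 2159 in papain (-0.30 [-0.37, -0.23]). Aldoa (359 in papain + lonidamine and 476 in papain, -0.41), Tpi1 (157 in papain + lonidamine and 206 in papain, -0.39) and Gapdh (366 in papain + lonidamine and 479 in papain, -0.39) were lower there. Macrophage-like cells had Pkm at 177 in papain + lonidamine and 254 in papain (-0.52 [-0.76, -0.28]) and basal epithelial-like cells had Aldoa at 298 in papain + lonidamine and 356 in papain (-0.26). Of 150 values none was 2-fold lower and 1 was 2-fold higher, beside 0.947% and 1.21% of all gene and type pairs. The pairs were held to at least 50 UMIs in the 2 libraries and the members were not. The value that was higher, Pfkl in monocyte-like cells, came from 18 UMIs in papain + lonidamine and 0 in papain, under that minimum.

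The highest sum ratio was in monocyte-like cells, with 2447 in papain + lonidamine and 2193 in papain (0.16 [0.01, 0.31]) from 115 cells in papain + lonidamine and 65 in papain. The value past 2-fold was Pfkl there, at 38.7 in papain + lonidamine, beside 2.92% of genes at least 2-fold higher. This level was 3.38-fold above that limit in papain, a figure that leaves out the counting error of the 18 UMIs in papain + lonidamine. Neutrophil-like cells had Gpi1 at 323 in papain + lonidamine and 191 in papain (0.75 [0.45, 1.07]) and Tpi1 at 56.1 in papain + lonidamine and 97.6 in papain (-0.79 [-1.39, -0.22]), which lie on opposite sides of 0. Their summed ratio, 0.06 [-0.03, 0.15], was near 0. A cluster led by Camp, Ngp and Elane, genes of neutrophil precursors, held 9.1% of these cells in papain + lonidamine and 0.8% in papain. Its part in the Gpi1 and Tpi1 values was not tested. Immature olfactory neuron-like cells had Pfkp at 13.1 in papain + lonidamine and 7.46 in papain (0.81), from 52 UMIs in papain + lonidamine and 39 in papain. T cell-like cells differed little, from Eno1 (-0.02) to Ldha (486 in papain + lonidamine and 422 in papain, 0.20 [0.02, 0.38]).

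Isoenzyme pairs divided along cell types. Lactate dehydrogenase is built from subunits of Ldha and Ldhb, the heart-type gene. Ldha was 3.46% of Ldha and Ldhb UMIs in papain + lonidamine, 2.15% in papain and 2.57% in PBS mature olfactory neuron-like cells, so these neurons carried almost only Ldhb. It was 96.8% in papain + lonidamine, 94.2% in papain and 82.3% in PBS in T cell-like cells and 83.9% in papain + lonidamine, 81.1% in papain and 73.6% in PBS in basal epithelial-like cells. Over all cells the share was 54.7% in papain + lonidamine, 49.8% in papain and 27.6% in PBS. Mature and immature olfactory neuron-like cells held 29836 and 18544 of the 68765 Ldhb UMIs in PBS. In papain they held 5814 and 4293 of 23222. The part of cell type shares in the values over all cells was not tested. In ionocyte-like cells the Ldha share was 42.0% in papain + lonidamine, 43.3% in papain and 41.3% in PBS. Ldhb itself had 280 CPM in papain and 860 in PBS (-1.62). It was at least 2-fold lower in 7 types, among them mature (-1.25) and immature (-1.63) olfactory neuron-like, basal epithelial-like (-1.45) and T cell-like cells (-1.71). In ciliated-like cells the Ldha share was 57.0% in papain + lonidamine, 36.6% in papain and 20.7% in PBS, and in sustentacular-like cells it was 45.3% in papain + lonidamine, 38.8% in papain and 55.9% in PBS.

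Phosphofructokinase also divided along cell types. Pfkp made up 91.2% of its UMIs in papain + lonidamine, 90.5% in papain and 93.5% in PBS ionocyte-like cells, and 93.2% in papain + lonidamine, 94.6% in papain and 79.4% in PBS in dendritic-like cells. Pfkm, the muscle-type subunit and no member of the list, took 35.6% in papain + lonidamine, 32.3% in papain and 17.5% in PBS mature olfactory neuron-like cells. Eno1 took at least 59.2% of enolase UMIs in each library of every type but sustentacular-like cells. In these, Eno3, the muscle-type enolase, took 52.1% in papain + lonidamine, 55.4% in papain and 34.0% in PBS. Shares of this kind are counts of 3′ ends of each gene and were not compared as amounts of enzyme. Eno1b, a near-identical copy of Eno1, held 568 UMIs against 34291, and the named copies of other members held at most 0.209% of the member's UMIs.

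**Figure D5:**
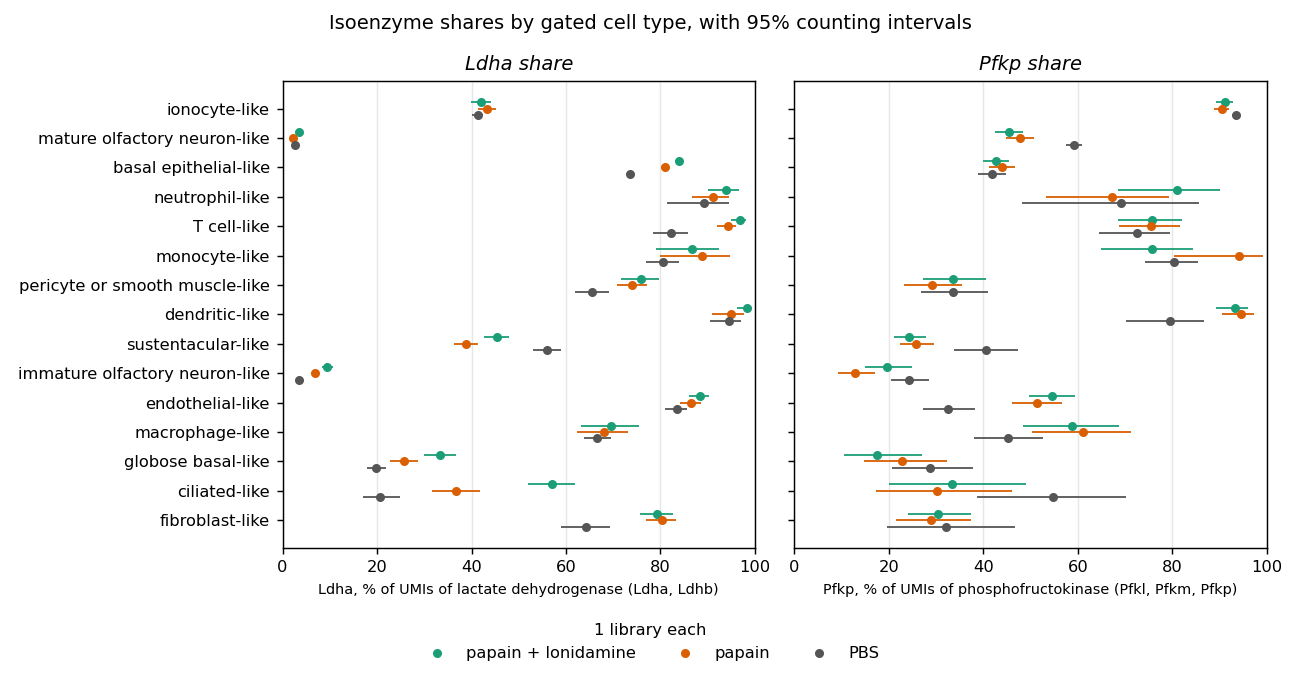
Ldha as a percentage of Ldha and Ldhb UMIs (left) and Pfkp as a percentage of Pfkl, Pfkm and Pfkp UMIs (right) in each cell type, 1 point per library with its 95% binomial counting interval. Olfactory neuron-like cells lie at the low end for Ldha and T cell-like and dendritic-like cells at the high end, and ionocyte-like cells stand at 90.5% to 93.5% for Pfkp.

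The rest of the pathway went several ways in papain against PBS over all cells. Of 11 measured genes among the other isoenzymes and steps, 3 were at least 2-fold lower, beside 4.97% of all genes, and none higher (median -0.17): Ldhb, Eno1b (-1.41) and Pgam1, the mutase between Pgk1 and Eno1 (189 CPM in papain and 391 in PBS, -1.04). Pgam1 was named after its values were seen. Eno1b is the near-identical copy of Eno1, and whether its UMIs are separate from those of Eno1 was not tested. Of 9 measured genes for glucose entry, hexokinases and carriers, 2 were at least 2-fold higher, the glucose transporter Slc2a3 (8.67 in papain and 3.05 in PBS) and Hk2 (97.1 in papain and 46.1 in PBS, 1.08), with 9.19% of all genes that far up. Within cell types Hk2 was past 2-fold higher in none of the 11 types in which it was measured. It was above 0 in 10 of them, with an interval above 0 in 7, and at least 2-fold lower in globose basal-like cells (5.61 in papain and 12.2 in PBS, -1.09). The median of the entry, hexokinase and carrier genes was below 0 in 11 of 15 types. Of 11 regulators, 2 were at least 2-fold higher over all cells. They were Pfkfb3, whose product makes the activator of phosphofructokinase (30.2 in papain and 11.3 in PBS, 1.42), and Epas1, the hypoxia-inducible factor 2 alpha gene (944 in papain and 340 in PBS, 1.47). In endothelial-like cells Pfkfb3 had 282 in papain and 56.3 in PBS (2.32). Within cell types Epas1 was above 0 in 12 of the 13 types in which it was measured. It was at least 2-fold higher in 4 types and at least 2-fold lower in 1.

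Targets of hypoxia-inducible factors outside glycolysis went different ways by cell type. Of 13 such genes none was past 2-fold over all cells and the median was 0.01, with 7 above 0 and 6 below. Their median was below 0 in 5 of 15 types, the lowest in sustentacular-like cells (-0.59, 7 of 10 measured genes below 0 and 3 at least 2-fold lower, beside 5.09% of genes). It was -0.17 in mature olfactory neuron-like cells (8 of 11 below 0) and -0.19 in immature ones (7 of 11). It was above 0 in 10 types. The highest were dendritic-like (1.31, 1 of 2 measured genes above 0), T cell-like (0.76, 4 of 6) and fibroblast-like cells (0.60, 8 of 10). At least 1 of these genes was 2-fold higher in 8 types and at least 1 was 2-fold lower in 4. The difference from the members was not tested. Ndrg1 was at least 2-fold higher in 6 of 14 measured types, beside 5.66% of all gene and type pairs. Among these were macrophage-like (99.0 in papain and 16.5 in PBS, 2.58) and dendritic-like cells (171 in papain and 23.9 in PBS, 2.79). Mxi1 was higher in T cell-like cells (1.95). Adm, the gene for adrenomedullin, was lower in mature olfactory neuron-like cells (2.32 in papain and 32.0 in PBS, -3.75), from 21 UMIs in papain and 624 in PBS, and in immature ones (-3.05). Egln3 was lower in basal epithelial-like (-1.64) and P4ha2 in sustentacular-like cells (-1.47). Of 16 branch genes, those of the pentose phosphate, serine and glycerol branches with Gfpt1, Pgm1 and Pgm2, none was past 2-fold over all cells (median 0.14). Within types their median was below 0 in 11 of 15. Of 5 measured gluconeogenesis genes 1 was at least 2-fold lower over all cells, beside 4.97% of all genes. It was Fbp1 (4.28 in papain and 10.7 in PBS, -1.32). In the 1 type in which it was measured, Fbp1 stood at 0.59, with an interval that includes 0.

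For papain + lonidamine against papain, 1 of 12 measured other isoenzymes and 1 of 9 entry and carrier genes were at least 2-fold higher over all cells, beside 2.25% of all genes. They were Ldhc (120 UMIs in papain + lonidamine and 21 in papain, 2.45) and the hexokinase Hk3 (3.74 CPM in papain + lonidamine and 1.36 in papain, 1.45). Neutrophil-like cells, where 2.48% of genes were at least 2-fold higher, had higher Adpgk, the ADP-dependent glucokinase (166 in papain + lonidamine and 27.5 in papain, 2.56), Hk3 (80.7 in papain + lonidamine and 27.5 in papain, 1.53) and G6pdx, the entry to the pentose phosphate branch (57.5 in papain + lonidamine and 26.1 in papain, 1.12), the last named after its values were seen. A cluster led by the precursor genes Camp, Ngp and Elane held 9.1% of neutrophil-like cells in papain + lonidamine and 0.8% in papain, and its part in these values was not tested. No regulator, hypoxia target, branch or gluconeogenesis gene was past 2-fold over all cells, of 11, 13, 16 and 5 measured, and Slc16a3, a lactate exporter, had 11.3 in papain + lonidamine and 6.79 in papain (0.74).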

How the data were processed

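The deposited values are raw counts of UMIs per gene and cell barcode in 3 matrices, 1 per library. Per the submitters' processing notes the authors aligned reads with Cell Ranger 2.1.1 to build GRCm39, while the file headers name Cell Ranger 7.1.0. Barcodes under 500 UMIs, under 200 genes or above 20% mitochondrial UMIs were dropped, and doublets called by Scrublet within each library (1.44% to 2.16%) were removed. A marker counted in a cell with at least 1 UMI and at least 20% of the marker's 99.5th percentile of UMIs per 10000. A cell was given a type with at least 3 markers and a lead of 20 percentage points in the share of markers, and 23340 of 31789 cells were (73.4%). The 2 gene IDs named Aldoa were added (130607 and 24 UMIs).

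UMIs were summed per type and library. Log2 ratios used 0.5 added to each count, and intervals are exact conditional binomial. Gene medians and the shares of all genes past 2-fold took genes of at least 50 UMIs in the 2 libraries, a minimum not set for members. Shares have Clopper-Pearson intervals. UMIs of 1 library come from mixed mice, so intervals do not cover variation between mice, and free RNA was not separated. Other genes were named as the 6 with the largest change in each list. Clusters used 2000 variable genes, 40 components and 20 neighbours at resolution 1. The ratio calculation was tested on simulated data. The members and lists were chosen with earlier results of these data known. Tools were scanpy 1.11.5, scipy 1.17.1, numpy 2.4.6, pandas 2.3.3, leidenalg 0.10.2 and matplotlib 3.10.9. Alternatives changed the scaling, the cell and gate filters, depth, sex and doublets. Cell types with under 50 cells in any library were left out.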

Additional observations from a re-analysis of the deposited data

Results flagged for a closer look

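For some enzymes the counting interval lay above 0 in one type and below 0 in at least 1 other type under the same comparison. The difference between types was not tested, and each rests on 1 library per group. For papain against PBS these log2 ratios were 0.43 for Pfkl in ionocyte-like cells (89 UMIs in papain and 128 in PBS), 0.58 for Pfkp in endothelial-like cells, 1.07 for Pfkp in dendritic-like cells, 0.37 for Pgk1 in T cell-like cells and 0.55 for Ldha in ciliated-like cells. Pfkp, the platelet-type phosphofructokinase subunit, was thus higher in 2 types in which the summed enzymes were at -0.89 and -0.10.

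For papain + lonidamine against papain they were 0.81 for Pfkp in immature olfactory neuron-like cells, 0.53 for Tpi1, 0.30 for Pkm and 0.46 for Ldha in ciliated-like cells, 0.46 for Gapdh in monocyte-like cells, 0.25 for Pkm in ionocyte-like cells and 0.20 for Ldha in T cell-like cells. The ciliated-like cells numbered 54 in papain + lonidamine and 51 in papain, and the monocyte-like cells 115 in papain + lonidamine and 65 in papain. The sign turned in at least 1 alternative for 4 of these values. Ldha in T cell-like cells was -0.07 with thinned cells, Ldha in ciliated-like cells -0.03 with equal weight per cell, Pfkp in immature neuron-like cells -0.19 with types taken from clusters, and Pgk1 in T cell-like cells (papain against PBS) -0.06 in male cells.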

How the results depend on the processing

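The summed log2 ratio of papain to PBS over all cells, -0.78, was -0.72 without mitochondrial, 18S and ribosomal protein UMIs, -0.75 with median-of-ratios scaling, -1.04 with equal weight per cell, -0.82 in female cells, -0.55 in male cells and -0.87 with cells thinned to 2000 UMIs. That of papain + lonidamine to papain, -0.12, was -0.13 without those UMIs, -0.15 with median of ratios, -0.10 with equal weight per cell, -0.17 in male cells and -0.069 with thinned cells. Thinning drops cells under 2000 UMIs, unevenly, as in neutrophil-like cells (456 of 527 in papain + lonidamine, 377 of 473 in papain and 84 of 130 in PBS). The cause of these shifts was not tested. For papain against PBS every type that could be measured was below the all-gene median in each alternative (15 of 15, but 14 of 14 in female cells and with the stricter gate, and 13 of 13 in male cells). For papain + lonidamine against papain the number was 11 to 13, with 15 types except for 11 of 12 in male cells and 11 of 14 with the stricter gate. Median-of-ratios scaling shifts the sum and the all-gene median alike, so these counts could not change under it. Single members over all cells kept their direction in 110 of 110 alternative values for papain against PBS and in 107 of 110 for the other comparison, and members within types in 1776 of 1829 and 1630 of 1829. No paired analysis was possible because each group is 1 library, and for the same reason no replicate could be left out. Depth limits members with few UMIs in a type, such as Pfkl in monocyte-like cells.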
